A study of Mus musculus with 88 samples.

Results

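The comparison was between untreated NR-S1 and untreated SCCVII, the 2 transplanted mouse tumours of the series whose labels name them squamous cell carcinomas, across all genes with a name on the array. Its members were the 8 untreated arrays of these tumours, 4 for each, out of 88 arrays in all. The study irradiated 4 mouse tumours growing in the hind leg of C3H/HeNrs mice and measured their RNA on one-colour CodeLink oligonucleotide arrays. Each array held labelled RNA of a piece of tumour, with tumour cells and the cells of the host mouse together. The deposited value of a probe is an intensity on a linear scale, scaled so that the median of an array lies near 1.

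Both carcinomas are labelled as having arisen spontaneously in a C3H/He mouse, and neither carries an engineered allele in the labels. The carbon-ion arm and the gamma-ray arm of the study each had their own untreated tumours. Each tumour therefore had 2 unirradiated arrays in the carbon arm and 2 in the gamma arm, with a dose of 0 Gy. No sex or age of the mice is in the labels. Whether both arrays of such a pair are from different mice is unstated, and the p-values below therefore measure only the spread between these arrays, which may be technical. The untreated arrays of the other tumours, 8 in number, served for comparison. NFSa is labelled a spontaneous fibrosarcoma and #8520 a fibrosarcoma induced by radiation.

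Squamous carcinomas arise from stratified epithelium, whose basal cells build their skeleton from the keratin pair Krt5 and Krt14 under the control of the transcription factor Trp63. Such cells are held together by E-cadherin (Cdh1) and by desmosomes, and cells that move up lay down a cornified envelope. Carcinoma cells can lose these features and take on those of mesenchymal cells, a change known as epithelial to mesenchymal transition. Fibrosarcomas are mesenchymal from the outset and serve here as a yardstick.

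The 8 arrays had median intensities of 1.04 to 1.06. Of 18069 named genes, 17910 had enough values to be tested. Across these genes the log2 intensities of same-arm arrays of a tumour correlated at 0.987 to 0.991, those of one tumour across arms at 0.966 to 0.975, and those of different tumours at 0.885 to 0.918. These are correlations across genes, which are not independent replicates. A floor was set at an intensity of 0.365, the highest 25th percentile of any of the 8 arrays, and values at or below it are called at the floor. Where a gene was at the floor on all 4 arrays of one tumour, the difference is given as at least N-fold, against the floor. Where only some arrays were there (as for Fxyd3, Fbln1, Nrg1, Wnt4, Gpx2, Cnn1, Cxcl5, Ap1m2 and Mmp23), the fit used values below the floor, and the difference is smaller with these raised to it. Other differences are mean log2 intensity in NR-S1 minus that in SCCVII, with the arm as a block, ± the standard error from limma (4 arrays against 4). Adjusted p-values are from limma with the Benjamini-Hochberg method over all genes tested, two-sided, and a gene passed at an adjusted p under 0.05. The number of arrays limits the precision.

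The tumours differed in a large part of the transcriptome. Of the 17910 genes, 8302 passed (46.4%), 3717 of them higher in NR-S1 (20.8% of genes tested) and 4585 higher in SCCVII (25.6%). The counts of the gene lists below are to be read beside these shares. At least a 2-fold difference as well was found for 3092 genes (17.3%), of which 1457 were higher in NR-S1 (8.14%) and 1635 in SCCVII (9.13%). The median difference over all genes was -0.03 on the log2 scale. All 4 NR-S1 arrays lay above all 4 SCCVII arrays for 2897 genes (16.2%) and below them for 3648 (20.4%). The genes present in only one of the tumours were split unevenly. Among genes that passed with no overlap between the groups, 353 had SCCVII at the floor on all its arrays and 268 had NR-S1 there. At a mean level of at least 32 times the floor in the brighter tumour, these numbers were 37 and 3.

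**Figure D1:**
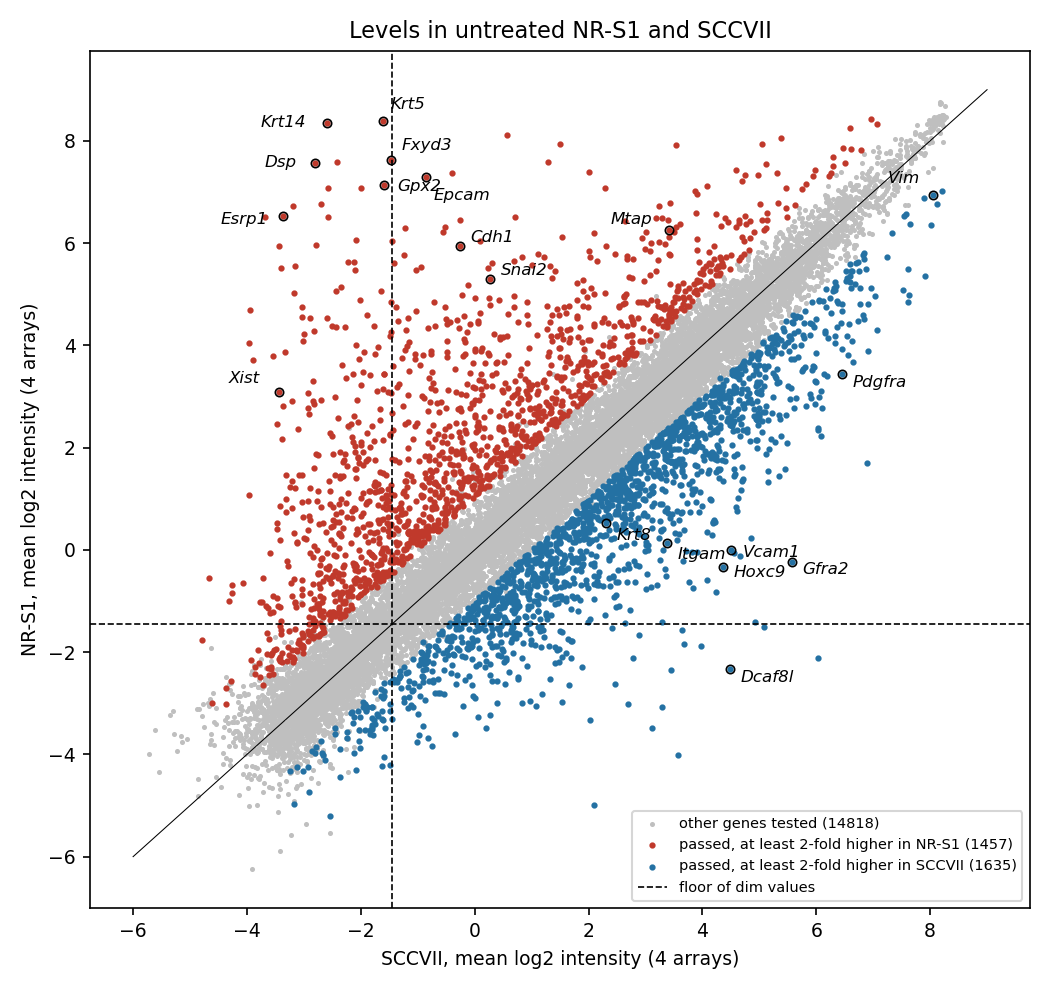
Mean log2 intensity of each gene tested in untreated SCCVII (horizontal, 4 arrays) against untreated NR-S1 (vertical, 4 arrays). Red points are the 1457 genes that passed at least 2-fold higher in NR-S1 and blue points the 1635 higher in SCCVII, grey points are all others, and dashed lines mark the floor. A column of bright NR-S1 genes stands at the floor of SCCVII (Krt5, Krt14, Dsp and Esrp1 among them), with few counterparts on the SCCVII side.

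The keratins of basal epithelium separated the tumours most plainly. Krt5 read 525 and 527 on the carbon-arm arrays and 206 and 216 on the gamma-arm arrays of NR-S1, and 0.339, 0.351, 0.316 and 0.300 in SCCVII. Its partner Krt14 read 510, 488, 199 and 227 in NR-S1 and 0.220, 0.102, 0.175 and 0.190 in SCCVII. Every SCCVII array was thus at the floor for both, and the NR-S1 arrays of the carbon arm were the higher ones. Krt5 was at least 912-fold higher in NR-S1 (adjusted p = 1.2e-09) and Krt14 at least 892-fold (adjusted p = 9e-09). Krt17, a keratin of activated and basal keratinocytes, was at least 251-fold higher, with 81.4 to 102 in NR-S1 and 0.0193 to 0.208 in SCCVII. Krt90 was at least 528-fold higher, with 183 to 198 against 0.153 to 0.235.

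Trp63 itself, the master regulator of squamous identity, read 7.88, 9.11, 8.29 and 9.08 in NR-S1. In SCCVII it read 0.781 and 0.676 in the carbon arm and 0.159 and 0.101 in the gamma arm, so that only the carbon-arm arrays lay above the floor. The difference was 4.82 ± 0.45 (adjusted p = 1.8e-05), 3.54 in the carbon arm and, against the floor, at least 4.57 in the gamma arm. A second probe of Trp63 read 49.2 to 53.3 in NR-S1 and 0.0807 to 0.225 in SCCVII, at the floor on all 4 arrays. Fxyd3, a regulator of the sodium pump that is abundant in epithelia, read 158 to 250 in NR-S1 and 0.271 to 0.479 in SCCVII, where 2 of 4 arrays were above the floor. Of the 21 basal keratinocyte genes tested, 18 were higher in NR-S1, 2 were higher in SCCVII and 1 did not pass. The median difference of the list was 2.85, against -0.03 over all genes, and 18 members were higher in NR-S1 in each arm taken alone.

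Most keratins and junction proteins of simple epithelium followed. Krt7 read 214, 233, 125 and 120 in NR-S1 and 0.743, 1.01, 0.599 and 0.746 in SCCVII, a difference of 7.76 ± 0.14 (adjusted p = 6.2e-10). Krt19 was at least 168-fold higher in NR-S1, with 39.5 to 84.7 against 0.0234 to 0.230. Krt8 went the other way. It read 0.922, 0.865, 2.41 and 2.22 in NR-S1 and 2.74, 2.61, 9.31 and 9.08 in SCCVII, so that within each arm SCCVII was higher. The difference was -1.79 ± 0.10 (adjusted p = 5.3e-07). The gamma-arm arrays of both tumours were higher than the carbon-arm arrays. Krt8 in SCCVII also exceeded both fibrosarcomas in a fit of all 16 untreated arrays. It did so by 2.24 ± 0.38 over NFSa (adjusted p = 0.00028) and by 5.46 ± 0.38 over #8520 (adjusted p = 2.3e-08). The mean of #8520 lay below the floor, so the difference from #8520 is not exact and is smaller against the floor. Krt18, the partner of Krt8, had no probe of its own.

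Cdh1, the adhesion molecule of epithelial junctions, read 59.9, 61.0, 59.6 and 65.4 in NR-S1 and 0.797, 0.785, 0.822 and 0.951 in SCCVII. The groups were tight and far apart, at 6.20 ± 0.08 (adjusted p = 1.9e-10). Epcam, an epithelial surface antigen, read 143 to 181 in NR-S1 and 0.474 to 0.639 on the 3 SCCVII arrays with a value, a difference of 8.15 ± 0.14 (adjusted p = 2e-09). The tight-junction genes Cldn3 and Marveld3 were also higher in NR-S1, Cldn3 by 5.03 ± 0.13 and Marveld3 at least 13.4-fold. Of 23 simple epithelium and junction genes tested, 16 were higher in NR-S1 and 2 in SCCVII, and 5 did not pass (median difference 1.68, or 1.16 with genes at the floor in one tumour placed at their bound).

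**Figure D2:**
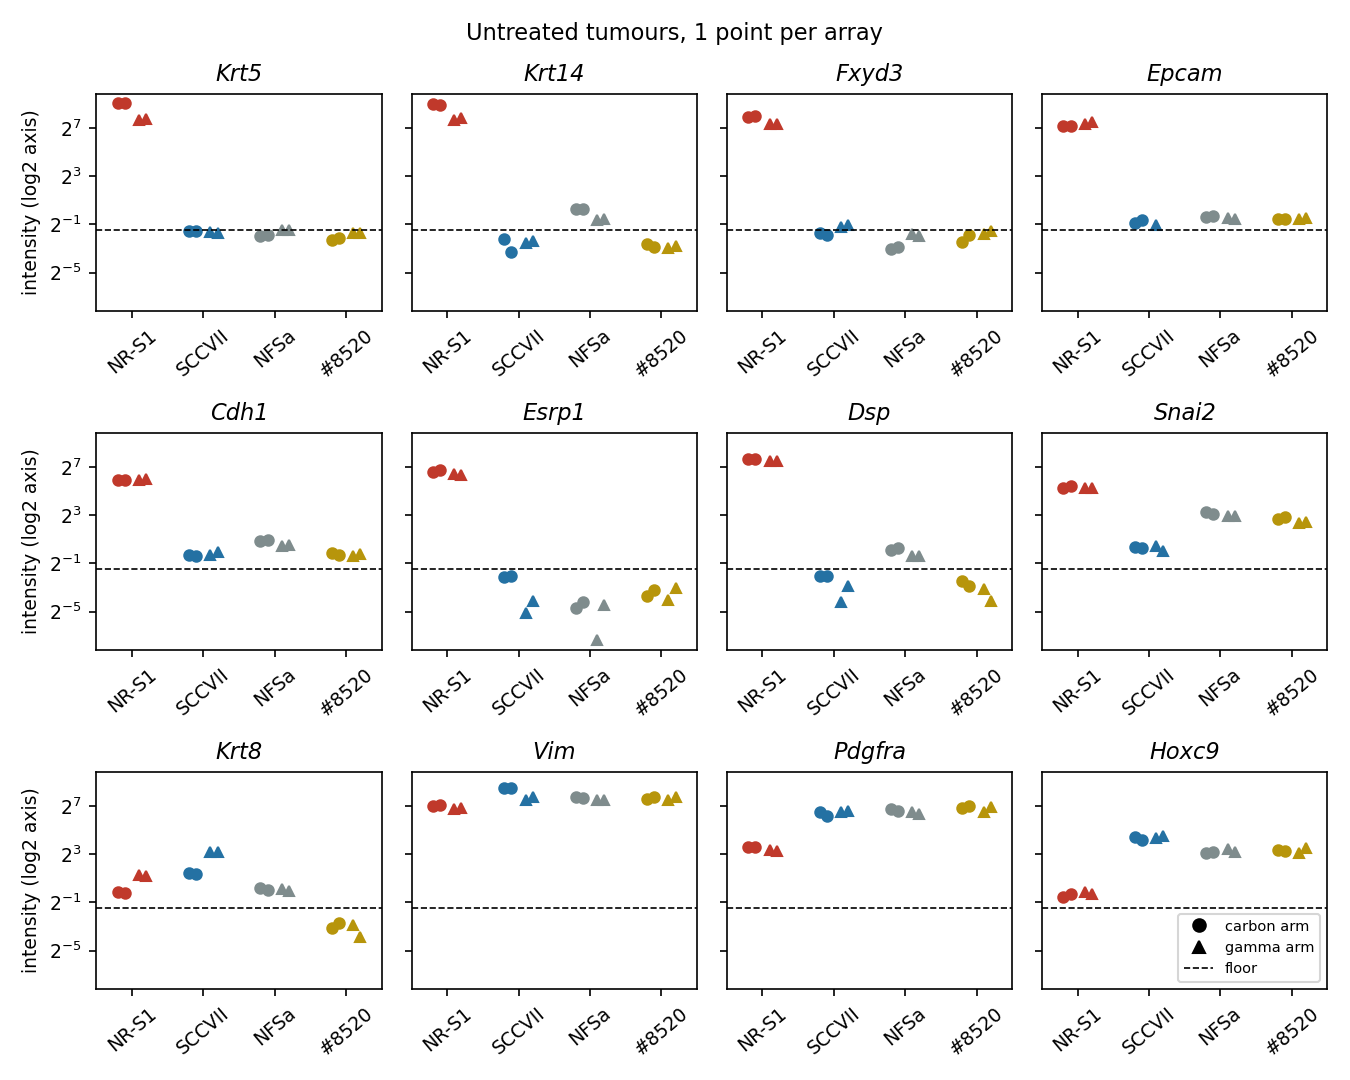
Intensity of 12 genes on each of the 16 untreated arrays, 1 point per array on a log2 axis, with circles for the carbon arm, triangles for the gamma arm and a dashed line at the floor. Krt5, Krt14, Fxyd3, Epcam, Cdh1, Esrp1 and Dsp are far higher in NR-S1 (red) than in SCCVII (blue), NFSa (grey) and #8520 (gold), while Krt8 is highest in SCCVII and Pdgfra and Hoxc9 are lower in NR-S1 than in the other tumours.

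The list with the largest median, 3.74 (3.12 with one-sided genes at their bound), was that of epithelial regulators and proteases. It also holds transport proteins, and is called epithelial regulators below. Of 21 members tested, 16 were higher in NR-S1, 0 were higher in SCCVII and 5 did not pass. Esrp1, which directs the epithelial pattern of splicing, read 95.5, 108, 85.8 and 82.0 in NR-S1 and 0.226, 0.237, 0.0292 and 0.0576 in SCCVII, at least 253-fold higher (adjusted p = 7e-08). Rab25, a small GTPase of epithelial vesicle recycling, was at least 135-fold higher, with 46.7 to 51.3 against 0.130 to 0.350. Mal2 and Zfp750, a transcytosis protein and a transcription factor of keratinocyte differentiation, were at least 70.4-fold and at least 26.8-fold higher. Ap1m2, the epithelial subunit of a sorting adaptor, differed by 7.01 ± 0.18 and the protease inhibitor Spint2 by 6.30 ± 0.10. The transcription factors Grhl2 and Ovol2, named after their values were seen, were higher in NR-S1 by 5.55 ± 0.07 (3.63 at a second probe) and at least 8.33-fold.

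Several of these genes hold, in the bases before their start, the E-box that Snail and Zeb repressors are known to bind. The 250 bases before the start are given for Krt5, Epcam and Rab25 because all 3 hold this site. They were taken from genes named above as high in NR-S1 and at or near the floor in SCCVII, so their direction followed from the choice. Of such repressors, Snai2 was higher in NR-S1 and Zeb2 in SCCVII (below), and their part was not tested. Other members of the lists lack the site. They are from RefSeq, 5′ to 3′ on the gene's strand of GRCm38.p6, with CACCTG or CAGGTG (the same site read on either strand) in capitals. Krt5 lies at chr15:101712906-101713155 on the minus strand, Epcam at chr17:87635729-87635978 on the plus strand and Rab25 at chr3:88548280-88548529 on the minus strand.
Krt5: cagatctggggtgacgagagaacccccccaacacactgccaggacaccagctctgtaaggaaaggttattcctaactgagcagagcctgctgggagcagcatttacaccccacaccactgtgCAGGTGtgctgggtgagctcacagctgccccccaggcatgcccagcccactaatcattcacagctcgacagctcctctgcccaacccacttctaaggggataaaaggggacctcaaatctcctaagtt
Epcam: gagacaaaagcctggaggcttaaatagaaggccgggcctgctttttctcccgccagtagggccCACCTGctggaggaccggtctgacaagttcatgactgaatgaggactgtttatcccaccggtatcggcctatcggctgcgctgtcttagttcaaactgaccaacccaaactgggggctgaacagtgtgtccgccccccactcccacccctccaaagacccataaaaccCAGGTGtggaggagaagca
Rab25: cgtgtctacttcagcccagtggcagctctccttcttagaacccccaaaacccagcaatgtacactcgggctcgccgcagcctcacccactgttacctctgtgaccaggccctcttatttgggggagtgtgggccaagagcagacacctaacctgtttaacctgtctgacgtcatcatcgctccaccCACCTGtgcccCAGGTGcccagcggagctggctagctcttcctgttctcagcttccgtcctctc
Krt5 held 1 match, and Epcam and Rab25 held 2 each, the nearest starting 19 bases before the start of Epcam and 53 before that of Rab25. Of 27025 genes in the promoter table, 19.4% held a match in these 250 bases, so the site is a common one and its presence is a description. Promoters were at hand for 12 of 21 basal keratinocyte genes, 17 of 23 simple epithelium genes and 11 of 21 epithelial regulators, fewer than 80%, so a share over these lists would be void and none is given.

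Desmosomes and the cornified envelope showed the same side. Dsp, the plaque protein that ties desmosomes to keratins, read 201, 200, 178 and 179 in NR-S1 and 0.242, 0.239, 0.053 and 0.136 in SCCVII, at least 518-fold higher (adjusted p = 1.3e-08). A second, dim probe of Dsp read 0.688 to 0.978 in NR-S1 and 0.0584 to 0.294 in SCCVII, again at the floor on all 4 arrays, and differed by 2.89 (adjusted p = 0.00026). Perp, a desmosomal membrane protein and p53 target, was at least 182-fold higher, and the desmosomal cadherins Dsg3 and Dsc2 at least 35.9-fold and at least 7.58-fold. Pkp1, another plaque protein, was measured in both tumours, with 20.4 to 22.98 against 1.53 to 2.13, a difference of 3.48 ± 0.10. Of 14 desmosome genes tested, 10 were higher in NR-S1 and 1 in SCCVII (median 2.70).

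Of 40 cornified envelope and keratinocyte differentiation genes, 23 were higher in NR-S1, 4 were higher in SCCVII and 13 did not pass (median 1.03, or 0.49 with one-sided genes at their bound). Ly6d, Krt13, Dmkn, Sprr2b, Tgm1 and Sbsn were among those higher in NR-S1. Ly6d, a surface marker of keratinocytes, read 97.9 to 198 in NR-S1 and 0.181 to 0.327 in SCCVII, at least 371-fold higher. Krt13, a keratin of internal stratified epithelia, was at least 38.0-fold higher. Tgm1, the transglutaminase that cross-links the envelope, differed by 4.79 ± 0.09. Markers of the host's own epidermis and hair were examined because the tumours grew in the leg. Krt10 and Krt25, keratins of the upper epidermis and of the hair root sheath, were at the floor on all 8 arrays (0.0539 to 0.190 and 0.0383 to 0.258), and neither passed. Krt1, of the upper epidermis, was at the floor on all 8 as well (0.0555 to 0.330); the groups overlapped, although it passed (1.31 ± 0.36, adjusted p = 0.014). Krt10, Krt25 and Krt1 were named after their values were seen. Of 21 hair follicle and skin appendage markers tested, 3 were higher in NR-S1, 5 were higher in SCCVII and 13 did not pass (median -0.08). Over all genes these shares were 20.8% and 25.6%. The list's summed intensity was 85.7 to 96.0 in NR-S1 and 39.4 to 45.7 in SCCVII. Its member Krt79 read 48.1 to 64.6 in NR-S1 and 1.66 to 2.575 in SCCVII (4.68, and 2.55 at a dimmer probe).

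Aoc1, Cwh43, Urah and Serpinb5 completed the 12 brightest genes of NR-S1 with SCCVII at the floor. Serpinb5, known as maspin and made by myoepithelial and squamous cells, read 135, 140, 81.7 and 79.9 in NR-S1 and 0.209, 0.207, 0.0273 and 0.120 in SCCVII, at least 288-fold higher. Aoc1, which degrades histamine and diamines, was at least 248-fold higher, Cwh43 at least 372-fold and Urah, an enzyme of urate breakdown, at least 300-fold. Among genes above the floor on every array, the largest differences after Krt7 were those of S100a14 (7.54 ± 0.11), Sncg (6.83 ± 0.16), Dmkn (6.77 ± 0.10) and Prss12 (6.71 ± 0.11). Gsta4, Spint2, Cdh1, Vsnl1 and Slpi completed the first 10, at 5.80 to 6.44.

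Mesenchymal genes did not form a mirror image of the epithelial ones. Of 31 genes of the mesenchymal transition list, 15 were higher in SCCVII, 9 were higher in NR-S1 and 7 did not pass (median -0.16). Vim, the intermediate filament of mesenchymal cells, read 128, 139, 110 and 115 in NR-S1 and 358, 360, 178 and 220 in SCCVII, a difference of -1.12 ± 0.13 (adjusted p = 9.6e-05). It was thus strong in both, and higher on every SCCVII array. Pdgfra, a receptor of fibroblasts, read 11.9, 11.9, 9.99 and 9.59 in NR-S1 and 92.8, 72.3, 92.9 and 95.9 in SCCVII, a difference of -3.02 ± 0.12 (adjusted p = 6.1e-08). With the mean of all its probes in place of the brightest, Pdgfra differed by -1.48 and did not pass (adjusted p = 0.13). Tgfbi, a matrix protein induced by TGF-beta, differed by -3.17 ± 0.12 and the homeobox gene Prrx2 by -2.43 ± 0.16.

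The transcription factors known to repress epithelial genes went different ways. Snai2, also called Slug and present in normal basal keratinocytes, read 38.0, 43.3, 37.4 and 38.1 in NR-S1 and 1.26, 1.22, 1.39 and 1.01 in SCCVII, a difference of 5.01 ± 0.11 (adjusted p = 1.7e-09). Zeb2, named after its values were seen, read 0.657 to 1.87 in NR-S1 and 4.003 to 8.97 in SCCVII, a difference of -2.21 ± 0.18. Its second probe, near the floor at 0.359 to 0.566 on all 8 arrays, differed by -0.33 (adjusted p = 0.045). Zeb1 had probes that disagree. Its brighter probe read 12.4 to 36.9 in NR-S1 and 11.8 to 24.8 in SCCVII, overlapped and did not pass (0.24 ± 0.14, adjusted p = 0.21), while its other probe differed by -2.67 (adjusted p = 2.6e-08). Twist1, named after its values were seen, differed by -0.51 ± 0.09.

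Fibroblast and matrix markers were divided. Of 32 tested, 13 were higher in NR-S1 and 15 in SCCVII, with a median of -0.07. Tnc, a matrix glycoprotein of wounds and tumours, read 288, 285, 201 and 206 in NR-S1 and 25.6, 23.7, 5.08 and 5.91 in SCCVII, a difference of 4.38 ± 0.29. Acta2 (3.63 ± 0.25), Tagln (3.28 ± 0.18) and Cnn1 (4.13 ± 0.23), proteins of smooth muscle and myofibroblasts, were higher in NR-S1, as were the fibulins Fbln1 (5.03 ± 0.30) and Fbln2 (3.67 ± 0.22). A dimmer probe of Fbln1, above the floor on 1 of 8 arrays, did not pass (-0.04, adjusted p = 0.88). Ogn, a small matrix proteoglycan, went the other way, with 0.977 to 1.39 in NR-S1 and 21.9 to 38.5 in SCCVII (-4.63 ± 0.09). In samples of whole tumour, fewer cells of a type and less RNA per cell cannot be told apart, here or in the lists below.

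Genes higher in SCCVII than in NR-S1 were not necessarily particular to SCCVII. The largest differences among genes above the floor on every array were those of Gfra2, a receptor subunit for neurturin, Ank, a pyrophosphate transporter, and Xlr, an X-linked lymphocyte-regulated gene. Gfra2 read 0.755, 0.7501, 0.905 and 1.02 in NR-S1 and 55.5, 44.3, 41.0 and 50.6 in SCCVII, a difference of -5.80 ± 0.13 (adjusted p = 2e-09). Ank read 2.53 to 4.22 in NR-S1 and 102 to 149 in SCCVII (-5.20 ± 0.09). Xlr read 0.394 to 1.00 against 16.3 to 20.5 (-5.06 ± 0.25). The transcription factor Etv1 (-4.77), Hoxc9 (-4.68), Scrn1 (-4.68), Ogn, Hspa12a (-4.61), the sodium exchanger Slc9a2 (-4.59) and the adhesion molecule Vcam1 (-4.50) followed. Dimmer probes of Gfra2 and Hspa12a gave -3.22 and -2.17. Against the fibrosarcomas, Ogn, Scrn1, Vcam1 and Hoxc9 were higher in SCCVII than in both, by 1.05 or more. Gfra2 (0.73 over #8520 and 1.71 over NFSa) and Slc9a2 (0.51 and 2.20) were also higher in SCCVII than in both. Ank (0.24, adjusted p = 0.41) and Etv1 (0.42, adjusted p = 0.084) did not differ beyond the threshold between SCCVII and #8520, nor Xlr between SCCVII and NFSa (0.11, adjusted p = 0.72), and Hspa12a was lower in SCCVII than in #8520 (-0.37, adjusted p = 0.046).

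At the floor in NR-S1 and clearly measured in SCCVII were Dcaf8l, Xlr5c, Nxf3, Gzmf, Gzmg, Gpr149, Pld5, Tdrd9, Arsj, Otop1, Tafa1 and Cyp2j13. Dcaf8l read 22.7, 24.8, 22.9 and 19.7 in SCCVII and 0.166 to 0.268 in NR-S1, at least 61.5-fold higher (adjusted p = 1.6e-09). Xlr5c, a relative of Xlr, was at least 32.4-fold higher, Nxf3 at least 26.8-fold and Tdrd9, a germ-line helicase that represses transposons, at least 10.1-fold. A second probe of Pld5 was at the floor on all 8 arrays. Dcaf8l, Xlr5c, Pld5 and Cyp2j13 were at the floor on all 8 fibrosarcoma arrays too. Gzmf and Gzmg, granzymes of cytotoxic cells, were at least 43.1-fold and at least 29.9-fold higher in SCCVII, and were higher in its gamma arm (30.7 and 35.4 for Gzmf) than in its carbon arm (8.19 and 6.91).

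Hox genes, which record the position along the body that cells came from, passed more often on the SCCVII side. Of 34 tested, 15 were higher in SCCVII, 3 were higher in NR-S1 and 16 did not pass (median -0.39). Hoxc9 read 0.676, 0.797, 0.905 and 0.831 in NR-S1 and 21.8, 17.9, 19.8 and 22.9 in SCCVII (-4.68 ± 0.10). Hoxc8 differed by -4.38 ± 0.16, Hoxa5 by -3.90 ± 0.09 and Hoxa10 by -3.83 ± 0.16. Hoxb9 was higher in NR-S1, at least 16.7-fold, with 4.61 to 7.93 in NR-S1 and 0.209 to 0.249 on the 3 SCCVII arrays with a value.

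Growth factor receptors and the genes often altered in squamous carcinoma were compared next. Nrg1, the ligand of Erbb3, read 10.4, 10.8, 10.7 and 11.5 in NR-S1 and 0.509, 0.404, 0.256 and 0.229 in SCCVII, where the carbon-arm arrays alone were above the floor (5.03 ± 0.19). Erbb3 read 38.0 to 61.7 against 2.33 to 2.66 (4.23 ± 0.13) and Erbb2 5.10 to 7.94 against 2.004 to 2.54 (1.51 ± 0.13). Egfr differed by 0.44 ± 0.09 (adjusted p = 0.0027), with 17.2 to 20.5 against 13.4 to 15.1, and by 0.91 at its second probe (adjusted p = 3.2e-05). Lrig1, which damps these receptors, was lower in NR-S1 (-2.70 ± 0.09). Of 13 receptors and ligands of the family tested, 7 were higher in NR-S1 and 3 in SCCVII.

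Of 27 squamous carcinoma driver genes, 11 were higher in NR-S1 and 6 in SCCVII (20.8% and 25.6% over all genes). Notch1, a receptor that drives keratinocyte differentiation, read 31.9 to 39.5 in NR-S1 and 3.84 to 4.50 in SCCVII (3.08 ± 0.08), and the cadherin-like Fat1 differed by 2.59 ± 0.15. Fgfr1 (-2.39 ± 0.12) and Ccnd1 (-1.30 ± 0.12), a growth factor receptor and a G1 cyclin, were higher in SCCVII. Trp53 had no probe of its own. In the Wnt and Notch list 17 of 41 members were higher in NR-S1 and 5 in SCCVII. Wnt4 differed by 6.90 ± 0.18 (4.28 at a second probe), the Notch ligand Jag2 by 4.91 ± 0.14, the Wnt antagonist Sfrp1 by 4.41 ± 0.17 and Wnt10a by 4.27 ± 0.22, while Dkk3 was lower in NR-S1 (-1.999 ± 0.10).

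Mtap, an enzyme of methionine salvage whose gene lies beside the tumour suppressor Cdkn2a and is often deleted with it, read 74.6, 78.6, 69.2 and 82.6 in NR-S1 and 12.8, 11.3, 9.02 and 9.98 in SCCVII, a difference of 2.83 ± 0.10 (adjusted p = 3.4e-08). SCCVII was also below both fibrosarcomas, which read 155 to 218. Cdkn2b, the neighbouring inhibitor of Cdk4 and Cdk6, differed by 2.21 ± 0.08. Cdkn2a itself was at or near the floor in both tumours (0.296 to 0.507 on 3 NR-S1 arrays, 0.276 to 0.314 in SCCVII) and did not pass. The neighbours on either side, named after these values were seen, were taken in RefSeq order among genes above the floor in one of the tumours. Ifnz (at least 2.81-fold) and Klhl9 (1.81 ± 0.12) on one side were also higher in NR-S1, and beyond them Ifna9 did not pass (0.30, adjusted p = 0.088) and Hacd4 was lower (-0.74, adjusted p = 0.0097). On the other side Tusc1 and Plaa differed by 0.66 ± 0.09 and 0.75 ± 0.13, and the next gene, Ift74, was lower in NR-S1 (-1.44 ± 0.11).

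Of 8 sex-linked genes tested, 1 was higher in NR-S1, 2 were higher in SCCVII and 5 did not pass. Xist, the RNA that coats the inactive X chromosome, read 9.45, 10.2, 8.29 and 6.62 in NR-S1 and 0.104, 0.178, 0.0844 and 0.0468 in SCCVII, at least 23.4-fold higher (adjusted p = 3.9e-08). A second probe of Xist, above the floor on 1 of 8 arrays, did not pass (0.37, adjusted p = 0.19). It was at the floor in NFSa too and measured in #8520 (10.2 to 12.4). The Y-linked Eif2s3y was measured on all arrays of both tumours, with 2.28 to 2.97 in NR-S1 and 5.46 to 7.81 in SCCVII (-1.26 ± 0.12). Kdm5d and Usp9y, also Y-linked and named after their values were seen, did not pass. The labels do not give the sex of the tumours' first hosts or of the mice that carried them, and the Y-linked Ddx3y had no probe of its own.

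More genes of the NRF2 and hypoxia lists were higher in NR-S1 than in SCCVII. Of 33 genes of the NRF2 and glutathione list, 21 were higher in NR-S1 and 4 in SCCVII (median 0.64). Gpx2, an epithelial glutathione peroxidase, read 168, 155, 121 and 127 in NR-S1 and 0.404, 0.341, 0.298 and 0.300 in SCCVII (8.73 ± 0.08, with 1 SCCVII array above the floor). Gsta3 was at least 63.2-fold higher, and Gsta4, Mgst1, Aldh3a1 and the cystine transporter Slc7a11 were higher by 6.44, 3.14, 2.77 and 2.77. Of 30 hypoxia and glycolysis genes, 22 were higher in NR-S1 and 1 in SCCVII (median 0.89). Vegfa, the vascular growth factor, read 157, 125, 105 and 116 in NR-S1 and 14.6, 11.9, 16.4 and 17.4 in SCCVII (3.06 ± 0.15). Adm differed by 4.49 ± 0.21, Car12 by 3.35 ± 0.26, Ndrg1 by 2.76 ± 0.27 and Ddit4 by 2.50 ± 0.08. Adm, Car12 and Ndrg1 differed more in the carbon arm than in the gamma arm, and their interactions with the arm passed (-1.16, -1.44 and -1.56).

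Proliferation and repair genes differed little in size. Of 33 G2/M and mitosis genes, 19 were higher in SCCVII and 1 in NR-S1, but only 2 of these differed at least 2-fold (median -0.35). DNA replication genes had 14 of 35 higher in SCCVII and 2 in NR-S1 (median -0.23), and DNA repair genes 17 of 35 and 5 (median -0.25). Of 32 p53 target genes, 14 were higher in NR-S1 and 7 in SCCVII (median 0.18). Pmaip1, the death inducer Noxa, read 14.8 to 22.2 in NR-S1 and 1.23 to 1.88 in SCCVII (3.61 ± 0.08), and Plk2, Dcxr and Gadd45a differed by 1.97, 1.79 and 1.78. Sterol and fatty acid synthesis genes had 5 of 29 higher in NR-S1 and 13 in SCCVII (20.8% and 25.6% over all genes).

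**Figure D3:**
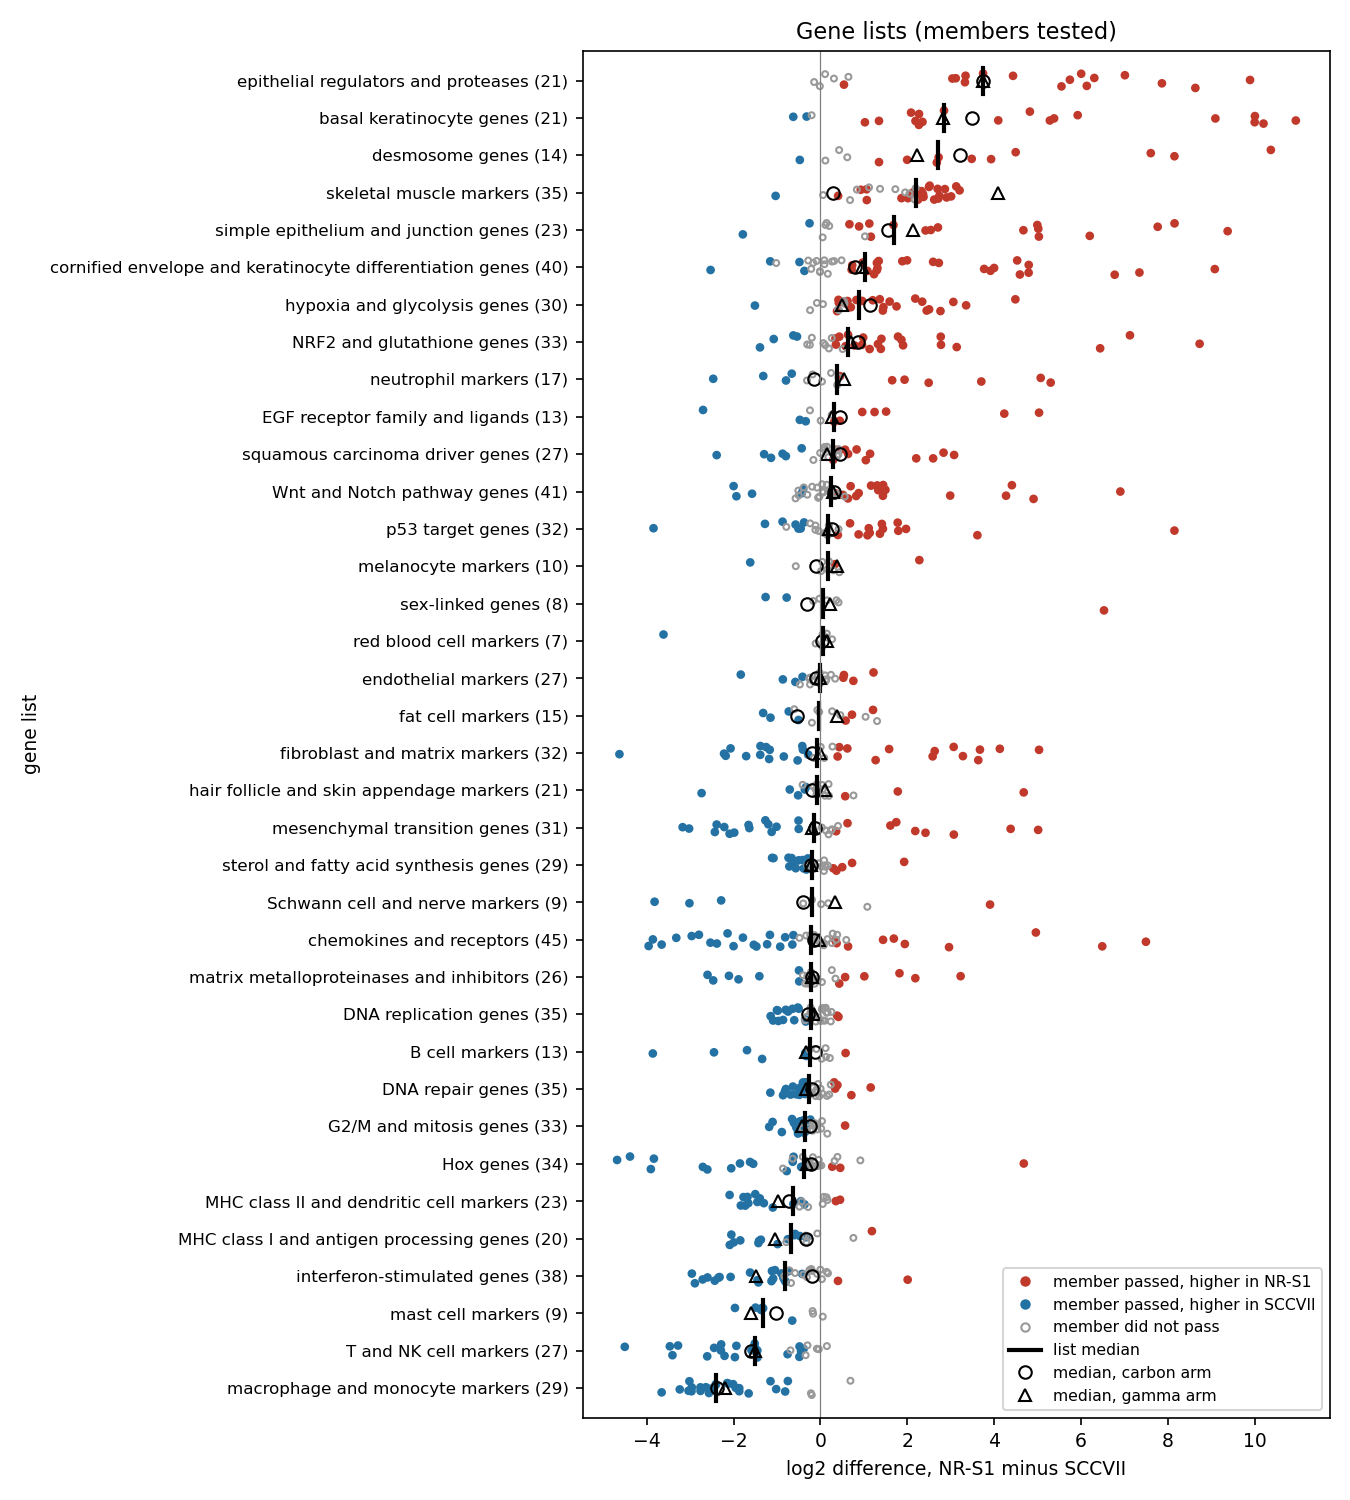
Log2 difference, NR-S1 minus SCCVII, of the members of 36 gene lists, with the number tested in brackets. Red and blue points are members that passed (higher in NR-S1 and in SCCVII), open points did not pass, bars are list medians, and open circles and triangles are the medians in the carbon and gamma arms alone. The 5 epithelial lists have medians of 1.03 to 3.74 and macrophage markers lie at the bottom with -2.41, while the muscle and interferon lists have arm medians far apart.

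Most markers of macrophages and of T and NK cells were lower in NR-S1. Of 29 macrophage and monocyte markers tested, 26 were higher in SCCVII, 0 were higher in NR-S1 and 3 did not pass (median -2.41). Their summed intensity was 362 to 452 on the NR-S1 arrays and 1601 to 1886 on those of SCCVII, and 26 of the 29 were above the floor on all NR-S1 arrays. Itgam, the integrin of myeloid cells, read 1.13, 1.12, 1.09 and 1.06 in NR-S1 and 11.6, 10.8, 10.2 and 9.03 in SCCVII (-3.24 ± 0.08, adjusted p = 3.6e-09). The scavenger and mannose receptors Msr1 and Mrc1 differed by -3.04 ± 0.12 and -3.02 ± 0.10, and the monocyte chemokine receptor Ccr2 by -3.66 ± 0.11. SCCVII differed from the fibrosarcomas in this list by medians of only 0.05 (NFSa) and 0.17 (#8520).

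Of 27 T and NK cell markers, 21 were higher in SCCVII and 0 in NR-S1 (median -1.50, or -0.92 with one-sided genes at their bound), with summed intensities of 19.9 to 24.7 in NR-S1 and 55.8 to 63.7 in SCCVII. Prf1, the pore protein of cytotoxic cells, was at least 7.95-fold lower in NR-S1, with 0.0858 to 0.261 against 2.07 to 4.22. The T cell receptor subunit Cd3g differed by -2.61 ± 0.13 and the NK receptor Ncr1 by -3.47 ± 0.26. For Ncr1, 3 NR-S1 arrays were at the floor, so its value is not exact. MHC class II and dendritic cell markers had 14 of 23 higher in SCCVII and 2 in NR-S1, mast cell markers 6 of 9 and 0, and B cell markers 6 of 13 and 1. The shares over all genes were 25.6% and 20.8%. Neutrophil markers were mixed, with 7 of 17 higher in NR-S1 and 4 in SCCVII. Their median was -0.16 in the carbon arm and 0.53 in the gamma arm. Mmp9 was higher in SCCVII, with differences of -2.01 in the carbon arm and -2.93 in the gamma arm. S100a9 read 39.4 to 64.2 in NR-S1 and 0.493 to 3.28 in SCCVII (5.30 ± 0.35), and Ltf 15.4 to 28.8 against 0.482 to 0.793 (5.07 ± 0.08); both are also made by epithelial cells. Of 27 endothelial markers, 4 were higher in each tumour (median -0.02).

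Of 45 chemokines and receptors, 10 were higher in NR-S1, 19 were higher in SCCVII and 16 did not pass. Over all genes 20.8% were higher in NR-S1 and 25.6% in SCCVII. Cxcl1, Cxcl3 and Cxcl5, which attract neutrophils, were higher in NR-S1. Cxcl1 read 38.5, 38.9, 69.3 and 62.0 in NR-S1 and 1.32, 1.33, 1.86 and 2.10 in SCCVII (4.96 ± 0.09), Cxcl3 was at least 96.3-fold higher and Cxcl5 differed by 6.49 ± 0.20. Ccl12, which attracts monocytes, read 4.34 to 4.86 in NR-S1 and 59.6 to 84.2 in SCCVII (-3.86 ± 0.11), and Cxcl12 of stromal cells differed by -3.96 ± 0.19. Among 26 metalloproteinases and inhibitors the counts were 6 and 7, near the shares over all genes (20.8% and 25.6%). Timp2, Timp3 and Mmp2 were lower in NR-S1, by 2.60, 2.11 and 1.89 on the log2 scale, and Mmp13 and Mmp23 were higher by 2.18 and 3.23. For Mmp23, 2 SCCVII arrays were at the floor, so its value is not exact.

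Interferon-stimulated genes were higher in SCCVII to a degree that depended on the arm. Of 38 tested, 22 were higher in SCCVII, 2 were higher in NR-S1 and 14 did not pass (median -0.81). Within the carbon arm the counts were 16 and 11 with a median of -0.20, within the gamma arm 33 and 1 with a median of -1.49, and the interaction passed for 32 of 38, against 19.2% of all genes. The list's summed intensity was 542 and 550 in the carbon arm of NR-S1 and 177 and 183 in its gamma arm, while SCCVII ranged from 648 to 694. Iigp1, an interferon-induced GTPase, read 7.69, 6.52, 1.24 and 1.31 in NR-S1 and 28.2, 24.96, 20.7 and 20.6 in SCCVII (-2.96 ± 0.36). Ifit1, named after its values were seen, was higher in NR-S1 in the carbon arm (1.255) and lower in the gamma arm (-1.19). The macrophage and T cell sums given above were lower on all NR-S1 arrays of both arms, and their part in these differences was not tested. MHC class I and antigen processing genes had 13 of 20 higher in SCCVII and 1 in NR-S1, with medians of -0.33 and -1.05 in the arms. Psmb8, an immunoproteasome subunit, read 65.4, 64.3, 18.2 and 18.9 in NR-S1 and 113 to 134 in SCCVII (-1.85 ± 0.30).

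The promoters of 2 of these genes are shown because their difference depended on the arm and because they carry the doubled GAAA core of the element that interferon factors are known to bind. Capitals mark GAAA, any 2 bases and GAAA again, or the reverse complement with TTTC at both ends, in the 250 bases before the start (RefSeq, GRCm38.p6, both strands searched). Gbp2 lies at chr3:142620413-142620662 and Igtp at chr11:58199306-58199555, both on the plus strand.
Gbp2: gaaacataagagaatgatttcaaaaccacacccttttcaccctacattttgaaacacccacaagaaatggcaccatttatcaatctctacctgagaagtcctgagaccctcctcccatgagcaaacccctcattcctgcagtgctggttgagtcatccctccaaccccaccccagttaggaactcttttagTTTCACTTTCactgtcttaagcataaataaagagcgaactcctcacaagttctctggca
Igtp: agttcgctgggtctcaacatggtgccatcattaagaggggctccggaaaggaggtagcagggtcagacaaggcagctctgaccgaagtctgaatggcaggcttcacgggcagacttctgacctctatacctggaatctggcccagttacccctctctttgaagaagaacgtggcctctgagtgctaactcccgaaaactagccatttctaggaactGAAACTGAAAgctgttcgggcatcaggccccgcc
The motif was held by 3.46% of the genes in the promoter table. Gbp2, a guanylate-binding protein, read 2.51, 2.07, 0.723 and 0.759 in NR-S1 and 9.002, 7.59, 11.4 and 11.0 in SCCVII (-2.89 ± 0.36, interaction -2.06). Igtp read 4.82, 4.07, 1.26 and 1.40 in NR-S1 and 8.69, 11.5, 15.3 and 15.2 in SCCVII (-2.35 ± 0.41, interaction -2.35). Promoters were at hand for 27 of the 38 genes of the list, fewer than 80%, so a share over the list would be void and none is given.

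Skeletal muscle markers were the list that differed most between arms. Of 35 tested, 24 were higher in NR-S1 and 1 in SCCVII (median 2.19), but the median was 0.28 in the carbon arm and 4.08 in the gamma arm, and the interaction passed for 31. Their summed intensity was 966 to 1152 on the NR-S1 arrays, 827 and 857 in the carbon arm of SCCVII, and 171 and 187 in its gamma arm. Pvalb, a calcium buffer of fast fibres, read 47.0, 42.7, 55.7 and 63.3 in NR-S1 and 38.4, 39.1, 1.04 and 1.08 in SCCVII. Tcap read 1.80, 2.12, 8.40 and 7.60 in NR-S1 and 3.39, 3.27, 0.244 and 0.221 in SCCVII, so that its direction turned between the arms. Tcap, Pgam2, Pvalb, Mybpc2 and Myl1 had the largest fitted interactions of the genes named here, 5.33 to 5.88, with the tumour difference higher in the gamma arm. Tcap, Pgam2 and Myl1 were at the floor in the gamma arm of SCCVII, and against the floor their interactions were at least 5.22, 4.81 and 5.15, so these 5 genes have no order among them. The SCCVII arrays of the gamma arm were the lowest for Pvalb and Tcap. For Tcap the NR-S1 arrays of the carbon arm were also below those of its gamma arm. The part of muscle in other differences between the arms was not tested. For Pvalb, Mb, Mybpc2 and Tnnt3 the tumour difference passed over all 8 arrays but not when any 1 gamma-arm array was left out.

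The arms therefore differed within each tumour. Between untreated arrays of the gamma and carbon arms, 7189 genes passed in NR-S1 (40.1%) and 7364 in SCCVII (41.1%), with at least a 2-fold difference for 1438 (8.03%) and 2094 (11.7%). The tumour difference itself changed with the arm for 3441 genes (19.2%), with the gamma-arm difference the higher for 1179 (6.58%) and the lower for 2262 (12.6%), and 956 of all these changed at least 2-fold (5.34%). This count fell to 2103, 1938 or 2169 without the first NR-S1 array of the carbon arm or either NR-S1 array of the gamma arm. The count within NR-S1 fell to between 4251 and 4316 without its second carbon-arm array or either gamma-arm array. Within the carbon arm 8333 genes passed (46.5%) and within the gamma arm 8789 (49.1%). Of the 3092 genes with at least a 2-fold tumour difference, 1150 also passed for the interaction, but only 9 had opposite signs in the arms. What sets the arms apart beyond the beam given to other tumours of the arm is unstated in the labels. The 1st percentile of intensity was 0.0567 to 0.134 on the carbon-arm arrays and 0.0176 to 0.0312 on those of the gamma arm, so the lowest values are not on the same footing in both, and their part in the differences was not tested.

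The size of the difference was set beside those of the other pairs of untreated tumours, in a single fit of all 16 arrays over 17824 genes. NR-S1 and SCCVII differed at least 2-fold for 3072 genes (17.2%). NR-S1 differed from the fibrosarcomas for 3394 (19.0%, NFSa) and 3488 (#8520, 19.6%). SCCVII differed from them for only 1616 (9.07%) and 1514 (8.49%), and the fibrosarcomas from each other for 1012 (5.68%). These pairs share arrays and are given side by side. The spread of differences over genes had an SD of 1.12 for NR-S1 against SCCVII and of 0.77 and 0.76 for SCCVII against NFSa and #8520.

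**Figure D4:**
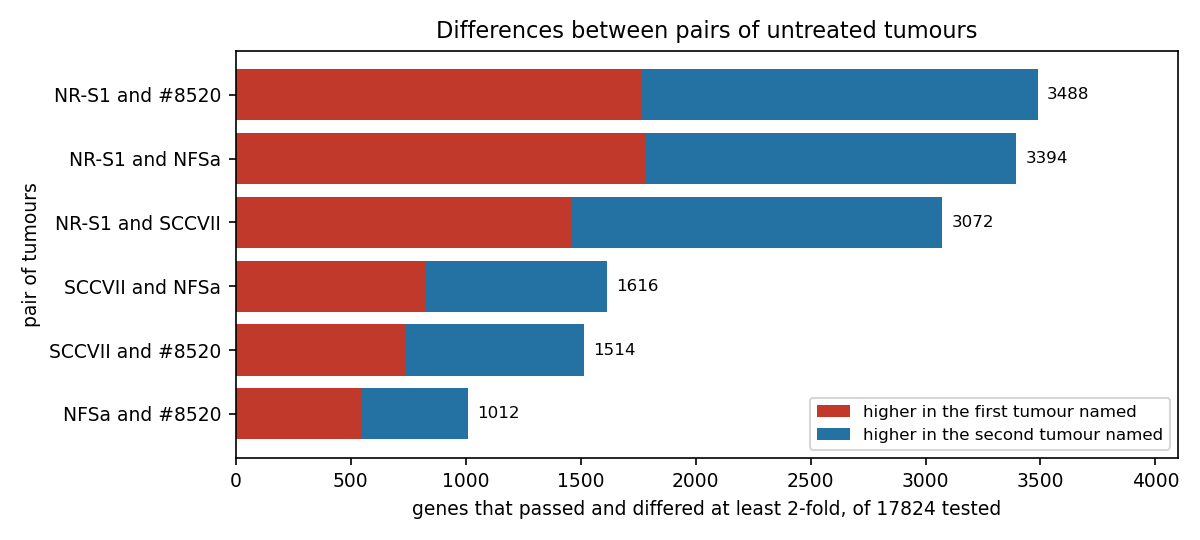
Number of genes that passed and differed at least 2-fold in each pair of untreated tumours, of 17824 tested over 16 arrays, with red for genes higher in the first tumour named and blue for the second. The 3 pairs with NR-S1 have 3072 to 3488 such genes and the 3 without it 1012 to 1616.

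The labelled cell type was checked against its defining markers in this fit, in which 43.4% of all genes passed between NR-S1 and SCCVII, 49.6% and 50.1% between NR-S1 and NFSa or #8520, and 33.2% and 29.0% between SCCVII and NFSa or #8520. Of the 21 basal keratinocyte genes, 17 were higher in NR-S1 than in #8520 and 18 than in NFSa, with medians of 4.07 and 3.93. SCCVII had 4 higher and 2 lower than in #8520, and 5 higher and 1 lower than in NFSa, with medians of 0.09 and 0.16. Of 23 simple epithelium and junction genes, SCCVII had 6 higher and 1 lower than in #8520, and 4 higher and 5 lower than in NFSa. Krt14 (-2.43), Dsp (-2.73) and Cdh1 (-0.96) were lower in SCCVII than in NFSa and did not pass against #8520. Krt14 and Dsp were at the floor in SCCVII, so their values are not exact and are smaller in size against the floor. For the 21 epithelial regulators the medians were 4.42 and 4.16 in NR-S1 and 0.33 and 0.27 in SCCVII. In the carbon arm the 1st percentile of intensity was 0.134 and 0.0825 in SCCVII and 0.0254 to 0.0341 in the fibrosarcomas. In the gamma arm it was 0.0176 and 0.0183 against 0.0177 to 0.0208. Dim values are thus not on the same footing in the carbon arm, and their part in the small SCCVII medians was not tested. Krt5, Krt14, Krt17, Krt90, Dsp, Perp and Esrp1 were at the floor on all 4 untreated SCCVII arrays, and Epcam, Cdh1 and Grhl2 were at 0.474 to 0.951. The basal keratins named here, Dsp, Perp and Esrp1 were thus absent above the floor from the untreated tumour labelled SCCVII, while Krt8 was measured there on every array. Other members were measured too. Above the floor on all 4 SCCVII arrays were 13 of 21 basal keratinocyte genes and 14 of 23 simple epithelium and junction genes. The same held for 6 of 21 epithelial regulators and 7 of 14 desmosome genes, against 12502 of all 17910 genes.

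The differences were then followed into irradiated tumours, on 36 arrays that the untreated comparison did not use. These gave 9 matched conditions, carbon ions at 30 Gy and gamma rays at 30 or 50 Gy, each at 6 h, day 1 and day 3. Of 3076 genes with at least a 2-fold untreated difference and values throughout, 2481 (80.7%) kept the sign of the difference of means in all 9 conditions and 0 lost it in all 9. Over all 8262 genes that passed, whatever the size of the difference, 4725 (57.2%) kept it in all 9 and 7 in none. Of 9555 genes that had not passed, 641 (6.71%) had the same sign in all 9. Without the 50 Gy conditions at day 1 and day 3 the share of 80.7% was 87.1% over the other 7. Krt5, Krt14, Cdh1, Epcam, Esrp1, Dsp, Trp63 and Snai2 were higher in NR-S1, and Krt8, Vim, Pdgfra, Gfra2, Dcaf8l, Hoxc9 and Itgam higher in SCCVII, in all 9.

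List medians varied to different degrees over the conditions. That of the epithelial regulators lay between 2.73 and 4.75 in the 9 conditions, that of basal keratinocyte genes between 2.69 and 4.02, and that of macrophage markers between -2.63 and -0.84. The simple epithelium median ranged from 1.34 to 2.79, and the cornified envelope median from 0.24 at day 1 after 50 Gy of gamma rays to 5.41 at day 3 after carbon ions. The T and NK cell median was 0.04 at day 3 after carbon ions and -0.47 to -2.15 in the other conditions. The muscle median ranged from -0.94 to 2.64 and so changed sign between conditions. The hypoxia median stayed above 0, at 0.11 to 1.254, and the interferon median below 0, at -1.42 to -0.43.

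**Figure D5:**
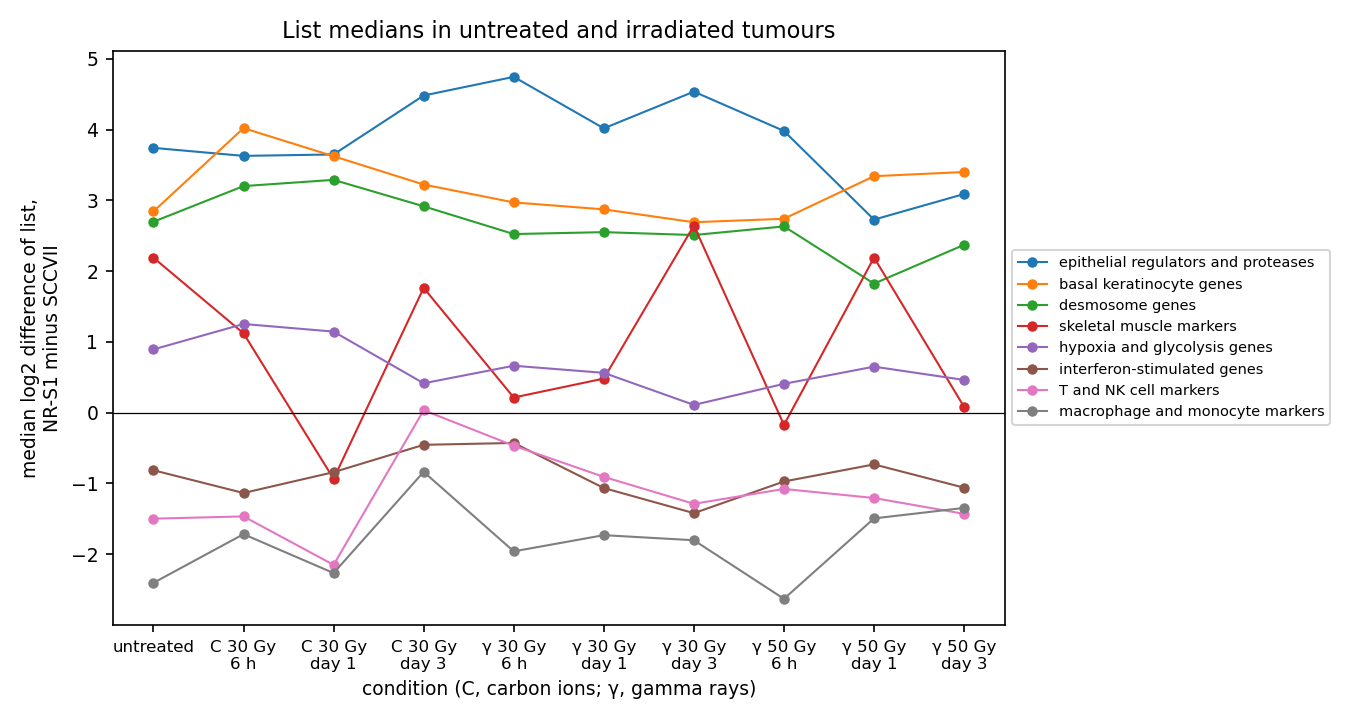
Median log2 difference, NR-S1 minus SCCVII, of 8 gene lists in untreated tumours (8 arrays, arm as a block) and in 9 irradiated conditions (2 arrays a tumour each, difference of means), joined by lines for each list. The lists of epithelial regulators, basal keratinocyte genes and desmosome genes keep medians of at least 1.82 and the macrophage list one of at most -0.84, while the muscle list crosses 0.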

How the data were processed

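Total RNA from 88 tumour samples was hybridised to one-colour CodeLink arrays, per the labels. The authors deposited 1 intensity per probe and array on a linear scale; its median near 1 is seen in the files, and the background correction is not given in the sources used here. Of 36227 probes, 21615 had 1 gene symbol, 681 several and 13931 none; only the first were used, with symbols updated through RefSeq (GRCm38.p6). Of several probes of a gene, the one with the highest mean log2 intensity over all 88 arrays stood for it.

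Log2 intensities were taken with no further normalization, missing and non-positive values left out, and at least 3 values a tumour were required. limma 3.58.1 (R 4.3.3) fitted tumour and arm over the 8 arrays, with an intensity trend, and 4 groups for the interaction and the arms, and tumours and arm over 16 arrays for the pairs. The script was tested on simulated data. Alternatives changed the block, the normalization, the filter on dim genes, the choice of probe, the variance model and the arrays used.

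Named genes were, each way, the 10 largest differences among genes above the floor on all arrays of the dimmer tumour, the 12 brightest with that tumour at the floor (no overlap in either case), up to 6 members of each list, the 5 largest interactions, and Krt5, Krt14, Krt8, Krt18, Trp63, Cdh1, Epcam, Esrp1, Vim, Zeb1, Cdkn2a, Trp53, Egfr, Xist and Ddx3y. Genes outside this are marked as named after their values were seen. The comparison and the gene lists were chosen with earlier results of these data known.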

Additional observations from a re-analysis of the deposited data

Results flagged for a closer look

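Of 386 groups of 4 arrays examined for the genes named, 7 had 1 array far from the other 3. Chance flags about 1 in 20 groups. In SCCVII these were the lowest array of Pkp1 (1.53), of Pdgfra (72.3) and of Cdkn2a (0.276) and the highest of Gsta4 (3.14). In NR-S1 they were the highest array of Krt6b (7.09) and of Snai2 (43.3) and the lowest of Cpa3 (1.24), a mast cell protease.

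The tumour difference depended on the arm, by the interaction term of limma, for the muscle genes Tcap (5.88), Pgam2 (5.77), Pvalb (5.59), Mybpc2 (5.47) and Myl1 (5.33). The SCCVII arrays of the gamma arm were at the floor for Tcap, Pgam2 and Myl1, so these values are not exact; with values raised to the floor, an alternative chosen after seeing the data, they were 5.22, 4.81 and 5.15. Each value is the log2 difference in the gamma arm minus that in the carbon arm.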

How the results depend on the processing

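The number of genes that passed between the tumours, 8302, ranged from 7359 to 8029 with 1 array left out. It was 5326 with the dimmest 50% of genes left out, which tests fewer genes, and 3071 against a difference of 1.5-fold; for at least 2-fold differences it was 1659 with the dimmest 50% left out (2970 to 3195 with 1 array left out). The share higher in NR-S1 was 44.8%, 50.9% in the carbon arm alone and 41.2% in the gamma arm alone. With the replicate number as a block 7335 genes passed. Same-numbered arrays deviated together at a correlation of 0.312 in the carbon arm and 0.0873 in the gamma arm. The labels do not say whether the numbers pair the arrays, and the main fit did not pair them. With no arm block 6167 genes passed, and in a fit of all 44 groups 10522. The interaction count was 1992 with no intensity trend and 1938 to 3517 with 1 array left out. The counts between arms were 4141 (NR-S1) and 3545 (SCCVII) with the dimmest 50% left out, and 4251 to 7633 and 5212 to 7108 with 1 array left out; the cause was not tested. In the pairs, leaving out the dimmest 50% gave 1653 (NR-S1 and SCCVII), 1674 (NR-S1 and NFSa), 1696 (NR-S1 and #8520), 689 (SCCVII and NFSa), 652 (SCCVII and #8520) and 437 (NFSa and #8520). Adding the floor before log2 gave 954, 917 and 640 for the last 3. Persistence was 87.1% without the late 50 Gy conditions. The sign turned for Zeb1 with the mean of its probes (-1.22), for Krt25 (0.84), Ifit1 (-1.19) and Kdm5d (0.38) in the gamma arm alone, and for Tcap (-0.77), Myl1 (-0.48) and the median of neutrophil markers (-0.16) in the carbon arm alone. Of 186 named genes that passed, 176 also passed with the same sign under each of the 21 single-gene alternatives in which they were tested. Where a filter or missing values left a gene out of an alternative, the gene was not tested there. Values at the floor have no order, and background intensities were not used here.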
